A study of Mus musculus with 4 samples.

Results

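The genes described here were 9 genes of the complement system: the C1q chains C1qa, C1qb and C1qc, the opsonin precursors C4b and C3, the alternative pathway factors Cfb and Cfp, and the anaphylatoxin receptors C3ar1 and C5ar1. They were taken as every non-control probe whose transcript accession, without its version, maps to 1 of these symbols in RefSeq, which gave 10 probes of 39429 on the array, with 2 probes for C3 and 1 for each other gene. The RNA came from BALF cells, the cells washed out of the airspaces of the lung, which the labels call alveolar macrophages. It was taken on day 22 from mice given intraperitoneal bleomycin at 0.035 U/g 2 times a week, an agent that damages the lung and is followed by fibrosis. The groups were wild-type (2 arrays) and S1pr2-/- (2 arrays), littermates of 8 to 10 weeks on a mixed background that had been crossed back to C57BL/6J 1 time. The S1pr2-/- mice carry a targeted disruption in every cell of a receptor for sphingosine-1-phosphate, and all 4 arrays are of bleomycin-administered mice, so that no level without bleomycin is given. The number of mice behind each RNA sample is not given in the sources used here, and the p-values measure the spread between these RNA samples.

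Complement is a cascade of plasma and tissue proteins that marks particles and dying cells for uptake and calls in leukocytes. C1q, a bundle of A, B and C chains, binds immune complexes and apoptotic cells and opens the classical pathway, in which C1s, the partner of C1r, cuts C4 and C2. The alternative pathway runs through C3, factor B (Cfb) and properdin (Cfp), which holds the C3 convertase together. Cleavage of C3 and C5 releases the anaphylatoxins C3a and C5a, which act on leukocytes through C3ar1 and C5ar1. Most plasma complement is made in the liver, but C1q and properdin are products of myeloid cells, and macrophages also make C3, C4 and factor B.

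The file headers give 1 scan pass for the arrays. Whether the arrays shared a slide or a scan was not tested. Batches of animals, RNA or labelling are not given in the sources used here and were not tested. A level below is the background-corrected intensity of a probe divided by the array's 75th percentile (2489 to 2817 intensity units), and it is read between arrays for 1 probe or 1 fixed set of probes, not between probes. The share of probes well above background ran from 67.6% to 72.2%. The 27161 probes that were so on both arrays of 1 or both genotypes entered the limma fit. The probe of S1pr2 itself went against the labels, with wild-type levels of 0.915 and 0.896 against 6.35 and 5.83 on the arrays labelled S1pr2-/- (6.72-fold, limma with Benjamini-Hochberg adjustment, adjusted p = 0.338). Whether it lies in the disrupted part of the gene is not given in the sources used here. Whether the labels of the groups were exchanged, which would turn the sign of every difference below, was not tested. The study also measured mRNA of other genes in BALF cells of both genotypes by quantitative PCR, and those values were not compared here. The second group is called the arrays labelled S1pr2-/-. Of the labelled cell type, 8 of 8 alveolar macrophage markers were well above background on every array, with a summed level of 504 and 553 in wild-type against 487 and 541.

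All 10 complement probes were well above background on all 4 arrays. No probe passed an adjusted p of 0.05 in either direction, among the 10 or among all 27161 probes (0% of each), and the adjusted p of the 10 ran from 0.508 to 0.913 (limma with Benjamini-Hochberg adjustment). An unadjusted p under 0.05 was found for 3 of the 10 probes, against 9.59% of all probes: both C3 probes, with a lower mean on the arrays labelled S1pr2-/-, and the C4b probe, with a higher one. By brightest probe these were 2 of the 9 genes, against 10.5% of 15432 genes. No complement probe also passed a fold of 1.5, the rule in the study's methods, which 1.62% of all probes met as lower and 0.486% as higher. Without a test, the arrays labelled S1pr2-/- lay wholly above the wild-type arrays for 5 probes, those of C1qa, C1qb, C1qc, C4b and C3ar1, where 20.0% of all probes did so. They lay wholly below for both C3 probes, where 21.7% of all probes did so. Over the 9 genes, with the brighter C3 probe, the median log2 difference was 0.48 beside a median of 0.00 over 15432 genes tested. None of the 9 genes stood 2-fold apart, which 1.24% of all probes did as lower and 0.180% as higher. With 2 arrays against 2, a two-sided exact permutation test of a single gene cannot go below p = 0.333.

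**Figure D1:**
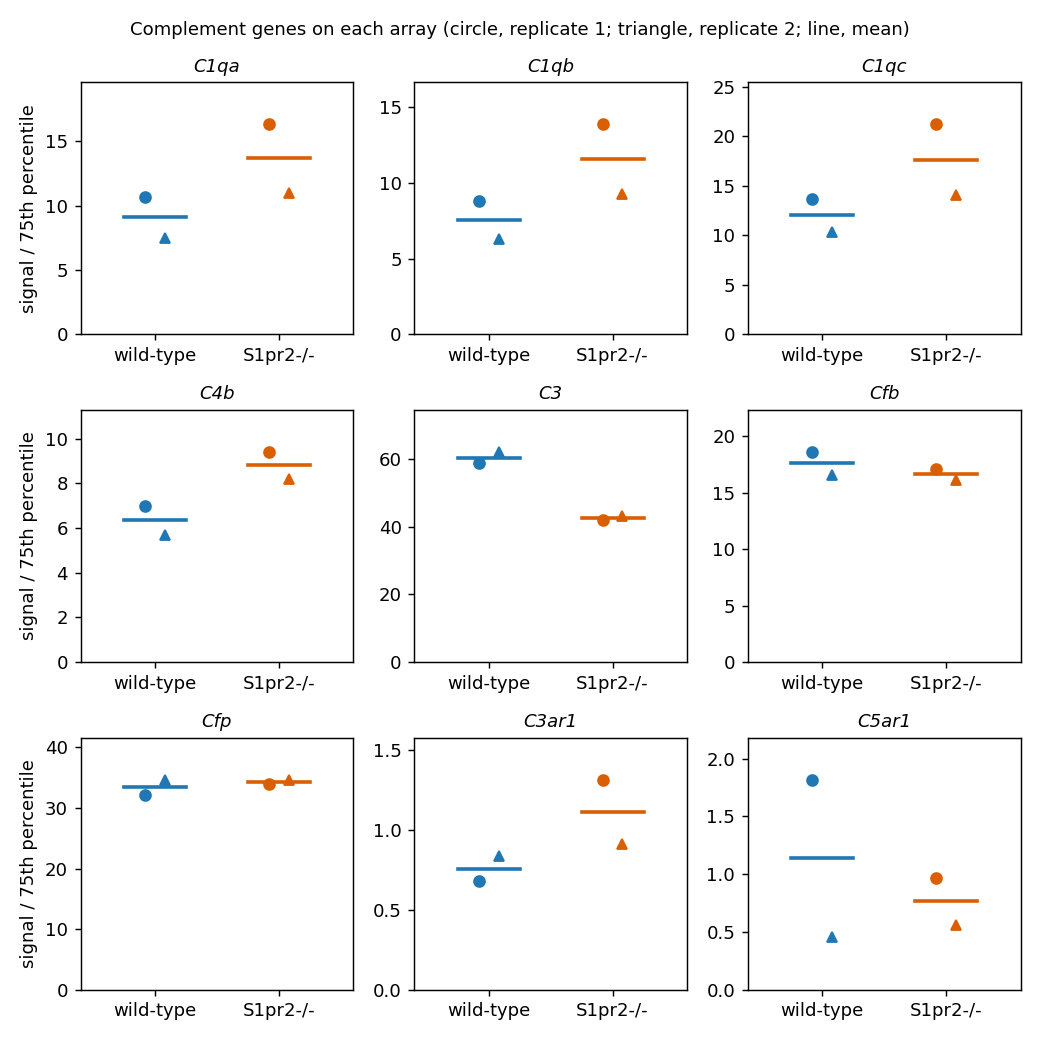
Level of each of the 9 genes on each array (vertical axes, signal over the array's 75th percentile, starting at 0) for the wild-type arrays and the arrays labelled S1pr2-/-; points are arrays and lines are means of n = 2. The 3 C1q genes, C4b and C3ar1 have both S1pr2-/- points above both wild-type points, C3 has them below, and Cfb, Cfp and C5ar1 overlap.

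Promoters of the genes with opposite array patterns are shown because the data set them apart: C1qb and C1qc, neighbours on chromosome 4 whose values ran together, and C3, which ran the other way. Each is the 250 bases before the start of transcription as RefSeq gives it for GRCm38.p6, read 5′ to 3′ along the gene. For C1qc the table uses a start inside the outermost span of the gene, so that the last bases of its window lie within that span. Capitals mark GAGGAA, a core bound by PU.1 and other ETS factors of myeloid cells, and TGCTGA, the short site of the Maf factors, on either strand (reverse complement TTCCTC or TCAGCA). Their matches do not overlap.
C1qb, chr4:136886201-136886450, minus strand: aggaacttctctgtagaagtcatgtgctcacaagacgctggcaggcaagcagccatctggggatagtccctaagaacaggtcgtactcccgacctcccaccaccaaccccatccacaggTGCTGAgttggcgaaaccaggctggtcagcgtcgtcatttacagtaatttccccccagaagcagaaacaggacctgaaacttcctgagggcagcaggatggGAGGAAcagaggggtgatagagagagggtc
C1qc, chr4:136892915-136893164, minus strand: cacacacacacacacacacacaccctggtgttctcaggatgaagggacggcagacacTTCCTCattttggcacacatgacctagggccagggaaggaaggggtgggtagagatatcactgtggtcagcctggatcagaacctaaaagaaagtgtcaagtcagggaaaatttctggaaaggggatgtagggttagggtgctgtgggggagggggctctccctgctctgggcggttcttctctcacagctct
C3, chr17:57228137-57228386, minus strand: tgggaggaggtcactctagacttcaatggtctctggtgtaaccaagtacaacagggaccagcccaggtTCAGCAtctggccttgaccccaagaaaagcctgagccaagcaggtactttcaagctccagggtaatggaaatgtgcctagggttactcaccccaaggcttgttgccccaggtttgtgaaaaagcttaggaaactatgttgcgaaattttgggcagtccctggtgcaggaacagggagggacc
Of the 9 genes, 6 had a promoter in the table (C1qb, C1qc, C3, C3ar1, C5ar1 and Cfp). GAGGAA was found in 2 of these, on the plus strand of C1qb beginning 30 bases before the start and on the minus strand of C1qc at 193 bases, and 23.3% of 32851 promoters of the same length held it. TGCTGA was found in 4 of them, C1qb, C3, C3ar1 and C5ar1, and in 16.1% of all promoters. Other motifs, searched on both strands, were in none of the 6 windows: GAAA and GAAA parted by 2 bases (IRF type, in 2.98% of all promoters), TTC and GAA parted by 4 bases (STAT6 type, 5.85%), and GGGA and TTCC parted by 2 bases (NF-kB type, 1.21%). These matches describe letters and not binding.

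The 3 chains of C1q had the same pattern over the 4 arrays, with about 1.5-fold higher means on the arrays labelled S1pr2-/- that did not pass the test. For C1qa, the A chain, the wild-type arrays gave levels of 10.7 and 7.48 and the arrays labelled S1pr2-/- gave 16.3 and 11.0. Those of C1qb, the B chain, were 8.84 and 6.27 against 13.9 and 9.28. Those of C1qc, the C chain, were 13.7 and 10.4 against 21.2 and 14.1. In each gene the first array of both groups was the brighter one, and the dimmer S1pr2-/- array stood only 1.03-fold (C1qa), 1.05-fold (C1qb) and 1.03-fold (C1qc) above the brighter wild-type array. The step between the 2 wild-type arrays, 1.43-fold in C1qa, 1.41-fold in C1qb and 1.32-fold in C1qc, was nearly as large as the mean difference between the groups. The log2 difference was 0.58 ± 0.303 (SE, n = 2 per group, 95% interval -0.34 to 1.51) for C1qa, with an adjusted p of 0.597 by limma with Benjamini-Hochberg adjustment. It was 0.61 ± 0.302 (-0.31 to 1.53, adjusted p = 0.588) for C1qb, the largest of the 9 genes. It was 0.54 ± 0.284 (-0.33 to 1.40, adjusted p = 0.601) for C1qc. A difference at least as large, in either direction, was found for 4.77%, 4.42% and 5.76% of all probes tested. The log2 differences of C1qa, C1qb and C1qc were 0.30, 0.32 and 0.24 without the first S1pr2-/- array. They were 0.87, 0.90 and 0.83 without the second. C1qb met an unadjusted p under 0.05 and a fold over 1.5 when the replicate number was a block (limma adjusted p = 0.529).

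The C1q genes lie side by side in the order C1qb, C1qc, C1qa, with no other gene between them. Their profiles, each taken as 4 log2 values minus the gene's mean, differed by a root mean square of 0.0145 between C1qa and C1qb, 0.0460 between C1qa and C1qc and 0.0478 between C1qb and C1qc. To C3 the distances were 0.590 to 0.630. The second wild-type array was lowest, followed by the first wild-type array, the second and then the first S1pr2-/- array, in 4 of the 9 genes, the 3 C1q genes and C4b. The same order was found in 762 of 15432 genes (4.94%). The genes nearest to the mean C1q profile, members left out, were Zdhhc14 (root mean square 0.0314), Fcna (0.0436), Prss46 (0.0581), Abcc3 (0.0587) and Fgd2 (0.0606), over 4 arrays. The 5 nearest to C1qb alone were Zdhhc14, Fcna, Abcc3, Lrrc39 and Prss46, at 0.0253 to 0.0714. Fcna, ficolin A, is a recognition protein of the lectin pathway, and its arrays overlapped, with levels of 0.303 and 0.213 against 0.434 and 0.296.

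C1qc and C3 were each printed 10 times on every array, which separates the error of a spot from the difference between RNA samples. The C1qc spots had a coefficient of variation of 1.43% to 3.69% within an array. They ran from 13.0 to 14.0 on the first wild-type array and from 13.5 to 14.5 on the second S1pr2-/- array, so these 2 ranges overlapped, while the other arrays stood apart. The C3 spots had a coefficient of variation of 1.90% to 3.47%. They ran from 55.9 to 64.1 over both wild-type arrays and from 38.8 to 44.3 over both arrays labelled S1pr2-/-, with no overlap. Spots of an array share 1 RNA sample and were counted as 1 value.

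**Figure D2:**
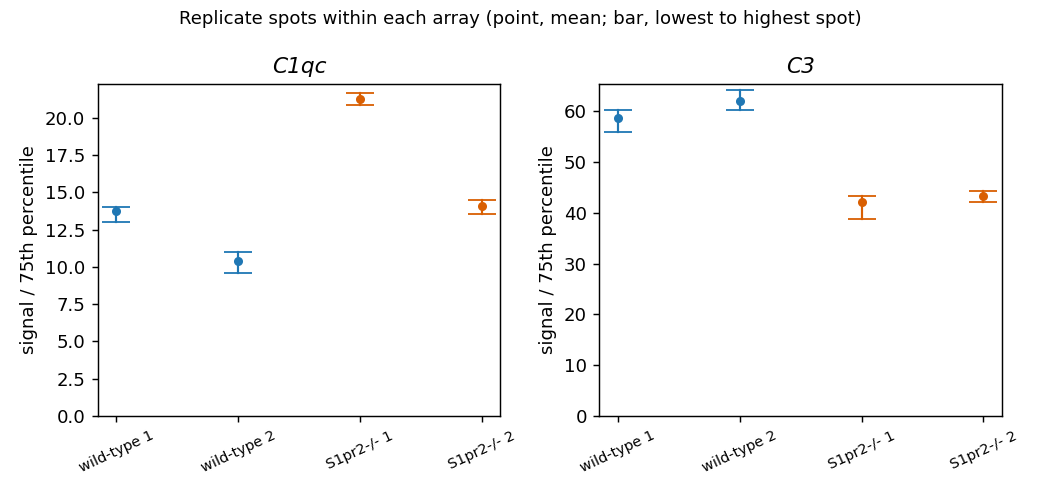
Replicate spots of C1qc and of the brighter C3 probe within each array (vertical axes, signal over the array's 75th percentile, starting at 0; point, mean; bar, lowest to highest of 9 or 10 spots used). The spot ranges of C1qc overlap between the first wild-type and the second S1pr2-/- array, and those of C3 lie between 55.9 and 64.1 in wild-type and between 38.8 and 44.3 in the others.

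C4b encodes C4, which the classical and lectin pathways cut to deposit C4b on a surface. It had wild-type levels of 7.01 and 5.68 against 9.41 and 8.22 on the arrays labelled S1pr2-/-. The groups did not overlap, and the lowest of the second group stood 1.17-fold above the highest wild-type array. The log2 difference was 0.48 ± 0.151 (SE, n = 2 per group, 95% interval 0.02 to 0.94), with an unadjusted p of 0.0445 and an adjusted p of 0.518 by limma with Benjamini-Hochberg adjustment. Without the second wild-type array it was 0.33, and without the first it was 0.63 and met the rule of p and fold. The mouse has a close copy of this gene, C4a, and whether the probe tells them apart was not tested.

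C3, the protein on which all the pathways meet, was the gene of the 9 with the smallest adjusted p, and its mean was the lower one on the arrays labelled S1pr2-/-. Its brighter probe gave 58.7 and 62.1 on the wild-type arrays against 42.0 and 43.2 on the arrays labelled S1pr2-/-. Its dimmer probe gave 18.4 and 20.9 against 14.5 and 14.8. Both probes had the same order, with all wild-type values above the others, by at least 1.36-fold on the brighter one. The log2 difference was -0.50 ± 0.0640 (SE, n = 2 per group, 95% interval -0.70 to -0.31, unadjusted p = 0.00314) on the brighter probe, 1.42-fold higher in wild-type, and -0.42 ± 0.0913 (-0.70 to -0.14, unadjusted p = 0.0159) on the dimmer one. The adjusted p was 0.508 for both by limma with Benjamini-Hochberg adjustment, so neither passed. The 2 probes read the same transcript and are not independent. A difference at least as large as that of the brighter probe was found for 6.53% of all probes.

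The 2 other alternative pathway genes had levels that overlapped between the groups. Cfb, factor B, which carries the protease of the C3 convertase, gave 18.6 and 16.6 against 17.1 and 16.1, a log2 difference of -0.08 ± 0.0906 (95% interval -0.36 to 0.19, limma adjusted p = 0.765, n = 2 per group). Cfp, properdin, gave 32.2 and 34.7 against 33.9 and 34.6, a difference of 0.04 ± 0.0691 (-0.17 to 0.25, limma adjusted p = 0.864). All values of Cfp lay within 1.08-fold of each other. These intervals leave out a change of 1.5-fold in either direction for both genes.

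**Figure D3:**
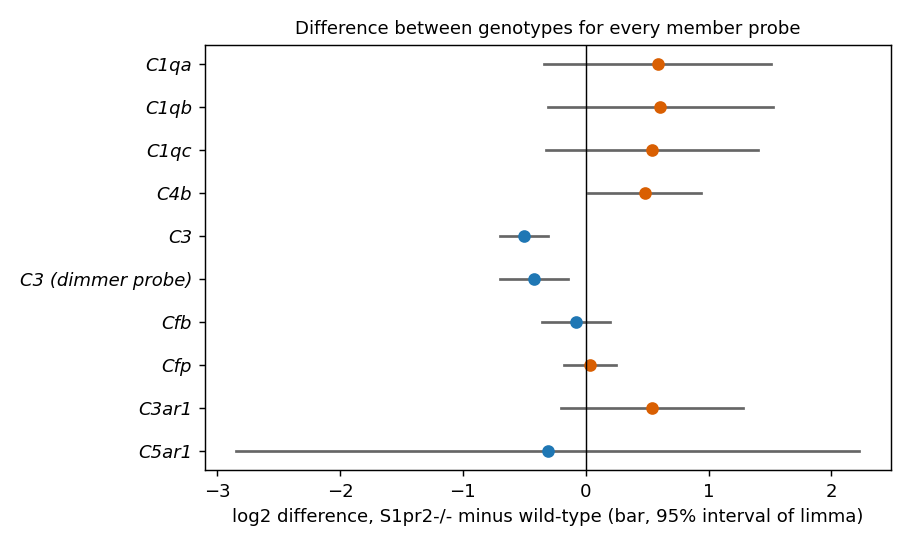
Log2 difference, arrays labelled S1pr2-/- minus wild-type, for the 10 probes (points) with the 95% interval of limma (bars). The intervals of both C3 probes lie below 0 and that of C4b just above 0 before adjustment over all probes, those of Cfb and Cfp are narrow around 0, and that of C5ar1 runs from -2.85 to 2.23.

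The anaphylatoxin receptors differed from each other in pattern. C3ar1, the receptor of C3a, gave 0.681 and 0.835 in wild-type against 1.32 and 0.912 on the arrays labelled S1pr2-/-. The groups did not overlap, by a step of 1.09-fold, and the first S1pr2-/- array stood highest. The log2 difference was 0.54 ± 0.243 (SE, n = 2 per group, 95% interval -0.20 to 1.28, adjusted p = 0.566 by limma with Benjamini-Hochberg adjustment). Without the first S1pr2-/- array it was 0.27, and without the second it was 0.81 and met the rule of p and fold. C5ar1, the receptor of C5a that draws neutrophils and macrophages, gave 1.82 and 0.459 against 0.968 and 0.561. The 2 wild-type arrays differed 3.96-fold, more than any other member, and enclosed both arrays of the other group. Its log2 difference of -0.31 ± 0.836 (-2.85 to 2.23, adjusted p = 0.913) was 0.68 without the first wild-type array and 0.08 without the second S1pr2-/- array, so no direction can be given.

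Other genes had a like split within the groups. C5ar2, the second receptor of C5a, gave 1.35 and 0.548 against 1.10 and 0.439. Apoe, a marker of monocyte-derived and interstitial macrophages, gave 71.4 and 13.3 against 65.6 and 35.2. The summed level of the 6 other such markers on the array was 19.0 and 14.9 against 25.2 and 18.0. In all of these the first array of each group stood above the second, as in C5ar1 and C1q. Cx3cr1, a chemokine receptor of monocytes and interstitial macrophages, gave 5.01 and 3.40 against 7.47 and 5.78, and Fabp4, a lipid carrier of alveolar macrophages, gave 23.4 and 17.7 against 34.0 and 27.3. Both have the first array of each group above the second and no overlap, as in C1q, but each stood alone in its list. The 7 other alveolar macrophage markers had the first wild-type array below the second, and among them Siglecf (on its brighter probe) and Car4 were lower and Pparg higher without overlap. The 6 other monocyte-derived and interstitial macrophage markers overlapped between the groups.

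Marker lists of the cells that lavage could hold are set beside the complement values, where 21.9% of all genes were lower and 22.1% higher without overlap. Of alveolar macrophage markers 2 of 8 were lower and 2 higher, and of the 7 monocyte-derived and interstitial macrophage markers 0 were lower and 1 higher. All of these 7 had a higher mean on the arrays labelled S1pr2-/-, with a median log2 difference of 0.60. The median of the alveolar macrophage markers was -0.04. Neutrophil markers were lower in 4 of 6 tested (summed level 84.1 and 94.8 in wild-type against 68.3 and 61.6), and eosinophil markers in 4 of 4 tested (2.08 and 6.63 against 0.111 and 0.188). The rule of p and fold was met by 2 of these neutrophil markers, Cxcr2 (log2 difference -0.59) and Retnlg (-4.81). S100a9 (-1.46) and Csf3r (-0.28) were lower without meeting it. S100a8 (0.25) and Ltf (0.36) had higher means on the arrays labelled S1pr2-/- with overlap, so the neutrophil list was mixed. Whether Retnlg stands for neutrophils here was not tested. All 4 eosinophil markers tested also met the rule of p and fold, at -5.32 to -3.73. The limma adjusted p was 0.508 for each of them, as for Cxcr2 and Retnlg. Among them, Epx entered the fit through its wild-type arrays. It was well above background on only 1 array labelled S1pr2-/- and under the floor of 0.01 on the first, so its difference of -4.52 is a bound. Markers of airway and alveolar epithelium, which also makes C3, were lower in 4 of 5. The other, Scgb1a1, had a higher mean with overlap (13.6 and 17.4 against 11.4 and 28.2). The summed level of the epithelial markers overlapped too (26.1 and 28.5 against 21.0 and 36.7). T cell markers were lower in 3 of 6 (11.1 and 12.1 against 11.2 and 8.20) and dendritic cell markers in 2 of 6 (10.9 and 13.6 against 9.65 and 9.42). Fibroblast markers were higher in 3 of 4 (0.245 and 0.239 against 0.627 and 0.333), of which Dcn, decorin, met the rule of p and fold with a log2 difference of 1.41 (limma adjusted p = 0.513). Every B cell and NK cell marker overlapped, with summed levels of 1.59 and 0.491 against 0.623 and 0.421 and of 2.77 and 7.17 against 3.60 and 1.79. The part of these cells in the complement values was not tested, and in such mixed cells fewer cells of a type and less RNA per cell cannot be told apart.

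Of 56 complement genes listed by role, 55 had a probe and 39 were tested. None passed an adjusted p of 0.05 (limma with Benjamini-Hochberg adjustment). With an unadjusted p under 0.05 and a fold over 1.5, 5 were lower and 0 higher, where the rule was met by 1.92% and 0.570% of 15432 genes. Without overlap, 11 genes (28.2%) were lower and 11 (28.2%) higher, against 21.9% and 22.1% of all genes. Their median log2 difference was 0.04, and 0.00 for the 30 tested genes outside the 9. The 9 hold 5 of the 11 complement genes that were higher without overlap. Among these are C1qa, C1qb and C1qc, whose profiles were nearly the same. The 9 were chosen with earlier results of these data known, so this count is a description and not a test.

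**Figure D4:**
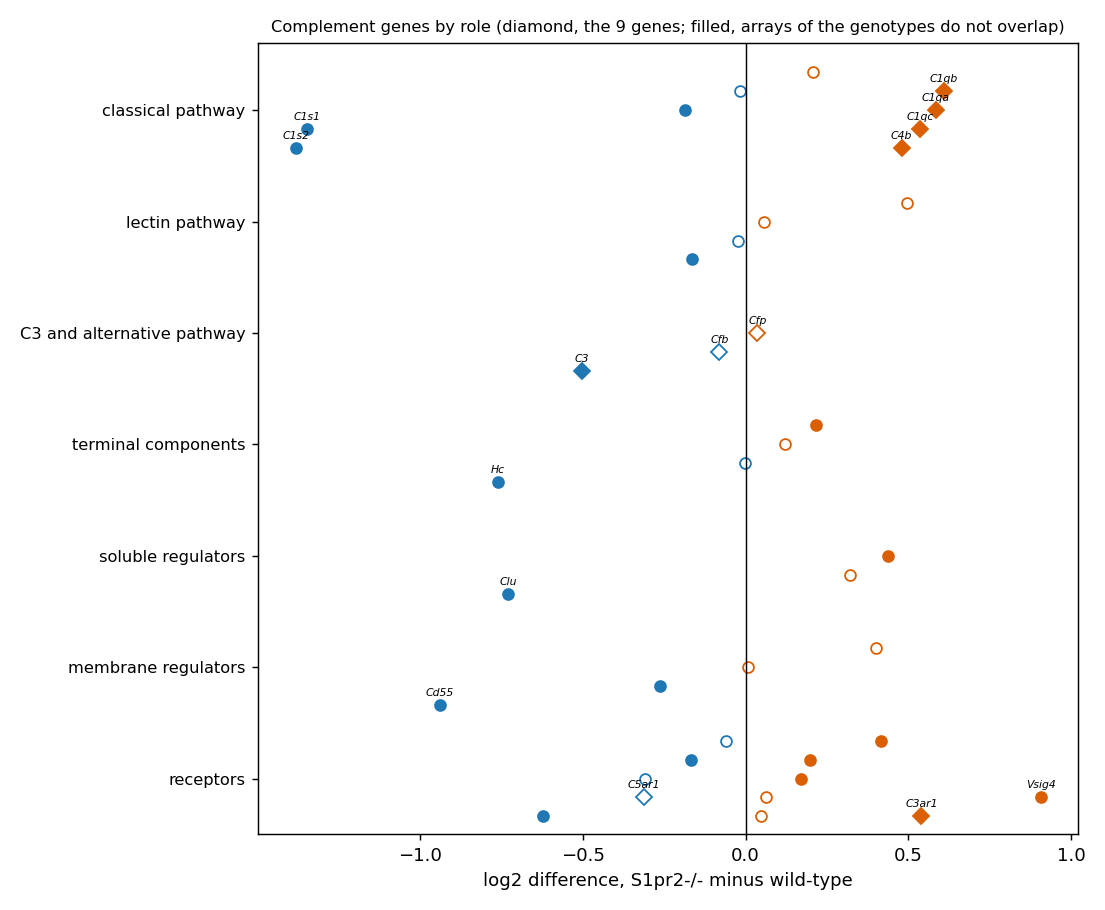
Log2 difference, arrays labelled S1pr2-/- minus wild-type, of the 39 tested complement genes by role (diamonds, the 9 genes; circles, other genes; filled, no overlap between the groups' arrays; vertical offsets within a role carry no meaning). C1s1 and C1s2 lie farthest left at -1.35 and -1.38 (with normexp background correction Cd55 does), the C1q genes and C4b stand together at 0.48 to 0.61, and Vsig4 lies farthest right at 0.91.

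In the classical pathway the genes lay on both sides of 0. C1s1 and C1s2, the proteases that cut C4 and C2, were dim but well above background on all 4 arrays, with levels of 0.0285 and 0.0561 against 0.0162 and 0.0153 for C1s1, and of 0.0385 and 0.0675 against 0.0209 and 0.0183 for C1s2. Their log2 differences were -1.35 ± 0.387 (unadjusted p = 0.0350, limma adjusted p = 0.517) and -1.38 ± 0.329 (unadjusted p = 0.0208, limma adjusted p = 0.508). With normexp background correction the differences were -0.68 and -0.78, and without the second or the first wild-type array that of C1s1 was -0.86 or -1.83. Without either S1pr2-/- array neither gene met the rule of p and fold. Neither met the rule with all arrays under the percentile over detected probes, no filter on dim probes or the methods' t-test. C1s1 also did not meet it with quantile normalization. C1s1 and C1s2 are close copies, and whether each probe reads its own gene alone was not tested. The partner protease C1ra, at 5.49 and 4.73 against 4.50 and 4.46 on its brighter probe, differed by -0.19, and by 0.07 on its other probe. C2 differed by 0.21 with overlap.

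Hc, which encodes C5, the source of C5a, gave 0.224 and 0.210 against 0.131 and 0.126. Its difference of -0.76 ± 0.0681 (unadjusted p = 0.00103, limma adjusted p = 0.508) had the smallest unadjusted p of the 39 genes. Of the other terminal components, C8a, C8b and C9 were not well above background on any array. Of the lectin pathway, 4 of 9 genes were tested, and Fcna had the largest difference at 0.50 with overlap.

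Among inhibitors, 2 genes met the rule of p and fold, both lower. Clu, clusterin, a fluid-phase inhibitor of the membrane attack complex, gave 9.85 and 7.61 against 5.11 and 5.34, a difference of -0.73 ± 0.157 (limma adjusted p = 0.508). Cd55, decay-accelerating factor, which takes C3 convertases apart on the cell surface, gave 0.251 and 0.207 against 0.142 and 0.0997, a difference of -0.94 ± 0.235 (limma adjusted p = 0.508). For both, all wild-type arrays lay above the others. With 1 array left out, Clu met the rule only without the second wild-type array and Cd55 only without the first S1pr2-/- array. With all arrays, neither met it by the methods' t-test, nor Cd55 with the percentile over detected probes or with no filter on dim probes. Serping1, the C1 inhibitor, lay the other way on both of its probes, by 0.44 and 0.69.

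Of 12 receptors, 5 were higher and 2 lower without overlap, where 22.1% and 21.9% of all genes were, and 0 met the rule of p and fold. Vsig4, a receptor for C3b fragments on resident macrophages, had the largest difference, 0.91 ± 0.410 (limma adjusted p = 0.567), with levels of 0.0589 and 0.0286 against 0.0777 and 0.0762. Without the first wild-type array it was 1.43 and met the rule of p and fold. Cd93, first described as a C1q receptor, gave 9.54 and 8.16 against 12.3 and 11.2, a difference of 0.42 ± 0.115 (limma adjusted p = 0.513). Subunits of complement receptor 3 differed in direction, with -0.17 for Itgam and 0.20 for Itgb2.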

How the data were processed

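RNA of BALF cells was measured on 4 one-color Agilent arrays, 2 per genotype. The authors deposited the intensity of every spot, background-corrected by Feature Extraction (10.7.3.1 in the submitters' processing notes, 11.0.1.1 in the file headers), and a table of normalized log2 values. Each processed intensity was scaled to the 75th percentile of its array's non-control spots, a floor of 0.01 was set, log2 was taken, flagged spots (115 to 273 per array; 0 spots were saturated) were left out and spots of a probe were averaged. Of 39359 probes measured on all arrays, 27161 were tested with limma 3.58.1 in R 4.3.3 (lmFit, eBayes) with Benjamini-Hochberg adjustment over all of them. Precision is limited by the number of arrays. The deposited log2 table equalled this log2 value minus the wild-type mean within 0.01 for 99.7% of probes, and was used as an alternative; its direction followed the scanner values. Probes were named by accession through RefSeq (GRCm38.p6), which named 69.6%. The array was designed on another build, so coordinates are given only for the promoter sequences, and gene order only as RefSeq lists it. A gene with several probes was represented by the brightest.

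The members, complement lists, marker lists and motifs were chosen with earlier results of these data known. Named with values were every member, other complement genes with p under 0.05 and a fold over 1.5, the largest difference in a list, the nearest profiles, S1pr2 and markers; C1ra, C2, C5ar2, Cd93, Serping1, Itgam and Itgb2 were named after their values were seen. The script was tested on simulated data. Alternatives were cyclic loess and quantile normalization, a percentile taken over detected probes, normexp (on the median signal, since the mean signal was not among the columns used), the deposited table, no floor, no or a stricter filter, flags kept, the replicate block, a trended variance, the methods' t-test, all probes of a gene averaged and each array left out.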

Additional observations from a re-analysis of the deposited data

How the results depend on the processing

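With all arrays, each of the 9 genes kept the direction of its difference under 13 alternatives, with log2 differences of 0.58 to 0.59 (C1qa), 0.61 to 0.64 (C1qb), 0.53 to 0.55 (C1qc), 0.47 to 0.49 (C4b), -0.52 to -0.46 (C3), 0.53 to 0.55 (C3ar1), -0.32 to -0.30 (C5ar1), -0.09 to -0.07 (Cfb) and 0.01 to 0.06 (Cfp). For these genes, no floor, either filter, the trended variance, the methods' t-test and the replicate block cannot change the difference. They therefore do not bear on its direction. Flags kept and averaged probes moved only C3. No gene of the 9 and no other complement gene passed an adjusted p of 0.05 under any setting run (limma with Benjamini-Hochberg adjustment); the smallest adjusted p among the 9 was 0.304, with the percentile over detected probes, and with an array left out it was 0.541 to 0.681. Leaving out 1 array in turn gave 0.30 to 0.87 (C1qa), 0.32 to 0.90 (C1qb), 0.24 to 0.83 (C1qc), 0.33 to 0.63 (C4b), -0.54 to -0.46 (C3), 0.27 to 0.81 (C3ar1), -1.30 to 0.68 (C5ar1), -0.16 to 0.0018 (Cfb) and -0.017 to 0.091 (Cfp), with the lone array assumed to vary like the others. The direction turned without the first wild-type array in C5ar1 (0.68), Cfb (0.0018) and Cfp (-0.017), and without the second S1pr2-/- array in C5ar1 (0.083). At p under 0.05 and a fold over 1.5, the 5 lower complement genes became 4 with quantile normalization, without C1s1. They became 2 (Clu and Hc) with the percentile over detected probes, 2 (the same genes) with no filter on dim probes and 1 (Hc) with the methods' t-test. The cause was not tested. With 1 array left out these counts were 1 to 5 lower and 0 to 2 higher for the complement genes and 0 to 1 higher for the 9 (C4b without the first wild-type array, C3ar1 without the second S1pr2-/- array), and the counts without overlap were 2 to 4 lower and 5 to 6 higher for the 10 probes and 12 to 17 lower and 13 to 18 higher for the complement genes, where a lone array overlaps less by construction. Arrays with the same replicate number share only that number. Over the probes tested, their deviations from the genotype mean correlated at 0.187. With 2 arrays per genotype the deviations are equal and opposite, so both pairs give this 1 value by construction. With the replicate number as a block, 1 gene was higher by p and fold, C1qb (adjusted p = 0.529), which is the 1 counted both among the 9 and among the complement genes, against 0 without it.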
